A study of Rattus norvegicus with 16 samples.

Results

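The genes described here make cholesterol and fatty acids or regulate, move and store them, and they were chosen by name from a fixed list of 35 gene symbols. Of these, 33 were among the 13222 genes of the expression table, and Scd and Elovl6 were not analysed here. The 33 genes comprised 8 enzymes of the steps from acetyl-CoA to squalene, 7 enzymes of the steps from squalene to cholesterol, 5 regulators of the SREBP transcription factors, 10 genes of the LXR receptors, sterol efflux, transport and storage, and 3 genes of fatty acid synthesis. Their values were compared across 16 libraries of glomeruli, the filtering units of the kidney, from male Wistar rats weighing about 175 g, for which the labels give no age. Each library is taken here as 1 rat. No label states this, so the p-values measure the spread between libraries. Healthy control rats formed the first group of 4. A second group of 4 rats received puromycin aminonucleoside (PAN), a toxin that injures podocytes and causes nephrotic syndrome, by intravenous injection. The other 8 rats received PAN and daily oral pioglitazone, a full agonist of the nuclear receptor PPARγ in clinical use (4 rats), or PAN and daily oral GQ-16, a partial PPARγ agonist (4 rats). The labels name a sham vehicle given by gavage but not which rats received it, and they give no dose. Glomeruli were collected on day 11 by passing kidney tissue through sieves, a method that leaves fragments of tubules in the preparation, and messenger RNA was sequenced.

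Cells keep their sterol supply constant through a feedback loop. When sterols run low, the escort protein SCAP carries the SREBP precursors to the Golgi, where they are cut to release transcription factors that switch on the enzymes of cholesterol and fatty acid synthesis, whereas INSIG proteins hold SCAP back in the endoplasmic reticulum when sterols are plentiful. When sterols accumulate, oxysterols activate the LXR receptors, which raise the efflux pumps ABCA1 and ABCG1, the lipid carrier apolipoprotein E and the gene Srebf1. In podocytes, ABCA1 is known as a pump that limits the build-up of cholesterol in glomerular disease.

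Promoter windows of 300 bases, from 250 bases before to 50 after the annotated start, were taken from RefSeq for assembly GRCr8, where 26 of the 35 genes had an entry. Pmvk, Fdft1, Sqle, Abcg1, Scarb1, Stard4, Acaca, Fasn and Elovl6 had no matching entry. Of the 6 genes that rose with PAN below, Npc2, Abca1 and Cyp51 had a window and are shown, together with Insig1, an SREBP target with the sterol element letters at 2 places, and Msmo1 as a sterol enzyme with several CCAAT boxes. Each is printed 5′ to 3′ on the strand of its gene, and capitals mark the named motif on either strand.
Npc2, chr6:110149196-110149495, minus strand, capitals CCAAT: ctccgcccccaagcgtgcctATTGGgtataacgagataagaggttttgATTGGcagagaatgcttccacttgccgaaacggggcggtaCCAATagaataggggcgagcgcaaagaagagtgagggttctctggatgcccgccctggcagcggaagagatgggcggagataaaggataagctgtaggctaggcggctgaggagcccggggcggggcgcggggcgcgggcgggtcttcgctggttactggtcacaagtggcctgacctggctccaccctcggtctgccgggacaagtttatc
Abca1, chr5:72596424-72596723, minus strand, capitals CACGTG: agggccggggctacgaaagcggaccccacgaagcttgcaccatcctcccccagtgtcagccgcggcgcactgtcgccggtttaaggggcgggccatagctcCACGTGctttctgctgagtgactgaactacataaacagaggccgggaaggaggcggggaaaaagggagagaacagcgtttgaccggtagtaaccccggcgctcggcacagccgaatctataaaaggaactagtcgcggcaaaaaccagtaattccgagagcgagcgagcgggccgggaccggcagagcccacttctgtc
Cyp51, chr4:30991443-30991742, plus strand, capitals GGGCGG: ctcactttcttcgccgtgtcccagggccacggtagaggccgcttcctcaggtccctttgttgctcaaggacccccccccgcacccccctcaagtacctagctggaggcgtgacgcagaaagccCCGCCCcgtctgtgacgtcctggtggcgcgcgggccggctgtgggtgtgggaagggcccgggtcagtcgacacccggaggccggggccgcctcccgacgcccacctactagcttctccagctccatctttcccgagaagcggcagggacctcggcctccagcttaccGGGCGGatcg
Insig1, chr4:8057720-8058019, minus strand, capitals CACNCCAC: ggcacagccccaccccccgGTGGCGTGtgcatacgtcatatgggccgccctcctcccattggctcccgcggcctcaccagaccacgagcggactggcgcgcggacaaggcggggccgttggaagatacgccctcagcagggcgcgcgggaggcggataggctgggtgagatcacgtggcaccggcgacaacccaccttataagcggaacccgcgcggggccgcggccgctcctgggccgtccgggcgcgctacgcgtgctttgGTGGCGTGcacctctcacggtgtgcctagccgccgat
Msmo1, chr16:29746863-29747162, plus strand, capitals CCAAT: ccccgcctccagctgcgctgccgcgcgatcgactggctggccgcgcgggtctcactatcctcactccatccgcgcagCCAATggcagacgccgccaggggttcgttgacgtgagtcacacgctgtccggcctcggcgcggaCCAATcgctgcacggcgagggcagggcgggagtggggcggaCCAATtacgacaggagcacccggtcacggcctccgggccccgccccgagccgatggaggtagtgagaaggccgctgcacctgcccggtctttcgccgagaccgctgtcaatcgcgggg

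The 4 motifs searched on both strands were CCAAT, the box bound by NF-Y, GGGCGG, the GC box bound by Sp1, CACNCCAC, a core of the sterol regulatory element, and CACGTG, an E-box, and the same bases could count toward more than one motif. CCAAT lay in 9 of the 12 windows of sterol enzymes (75%), namely those of Hmgcs1, Mvk, Mvd, Idi1, Fdps, Lss, Msmo1, Nsdhl and Sc5d, and in 37.5% of all 33469 RefSeq windows. GGGCGG lay in 10 of the 12 sterol enzyme windows (83.3%) and in 33.1% of all windows. CACNCCAC was present in the windows of Acat2 and Insig1, at 2 places in Insig1, and in 5.8% of all windows. CACGTG was present in the windows of Sc5d, Scap, Insig1 and Abca1 and in 6.42% of all windows. Over the 29 windows of all members the shares were 62.1% for CCAAT, 75.9% for GGGCGG, 6.9% for CACNCCAC and 13.8% for CACGTG. The RefSeq windows were not limited to the genes of the expression table. These matches describe letters in a fixed window and are not measured binding sites.

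Libraries held 13351137 to 21977663 reads in the listed genes, so that a count of 3 reads, taken as the smallest detectable level, was worth 0.137 to 0.225 CPM, the unit that expresses each gene's reads relative to its library's total. All 33 genes lay far above that level, and 32 of them had a mean of at least 10 CPM. The share of reads from 21 mitochondrial genes was 13.9 to 39.6% in control, 5.98 to 10.8% in PAN, 8.77 to 19.4% with pioglitazone and 6.76 to 31.4% with GQ-16, and it exceeded 30% in control rats 2 and 3 and in GQ-16 rat 2. A large mitochondrial share lowers the CPM of every other gene, and the median log2 change of all genes from control to PAN was 0.28. Values are therefore given as deposited and also after median-ratio scaling, which moved that median to 0.00. All 10 podocyte markers were listed, and their summed level ran from 2182 to 8856 CPM in control and from 6888 to 10320 CPM in PAN. The lowest control sums, 2182 and 2192 CPM, belonged to the same rats 2 and 3. All 8 proximal tubule markers were listed too, at sums of 3011 to 12008 CPM over the 16 libraries, so the preparations held tubule as well as glomerular RNA. Of adipocyte markers Lipe alone was listed, of adrenal cortex markers 1 of 6, and of skeletal muscle markers none of 5. In such bulk preparations fewer cells of a type and less RNA per cell cannot be told apart.

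PAN against control asks how injury changed these genes. With the values as deposited, 6 of the 33 genes rose and none fell at an adjusted p under 0.05 (limma, Benjamini-Hochberg over all genes): Npc2, Abca1, Abcg1, Fasn, Sqle and Cyp51. Among all genes tested 22.3% changed and 21.7% rose, so the share of these genes that rose was not above that of all genes. The median log2 change was 0.38 over the 33 genes and 0.28 over all genes. After median-ratio scaling Npc2 alone remained called, with 8.63% of all genes called, and the medians were 0.08 and 0.00. Levels in control and PAN rats did not overlap, with PAN higher, for 10 of the 33 genes as deposited and for 3 of them, Insig2, Npc2 and Fasn, after median-ratio scaling. The same held for 22.4% and 10.6% of all genes, respectively. Single libraries moved the count as deposited. Without control rat 1, 16 of the 33 genes rose, beside 4964 of all genes changed. Without control rat 2 or control rat 3 Npc2 alone passed, beside 860 and 838 of all genes. Without PAN rat 1 Fasn, Npc2 and Sqle passed, beside 1049 of all genes, and without PAN rat 2 Abca1, Abcg1 and Npc2 passed, beside 1317. The count over all genes was 2943 with every library. Without the 3 libraries over 30% mitochondrial reads none of the 33 passed, beside 56 of all genes. The log2 changes there were 1.21 for Abca1, 0.84 for Abcg1, 0.57 for Npc2, 0.55 for Sqle, 0.50 for Cyp51 and 0.47 for Fasn, from 13 libraries.

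**Figure D1:**
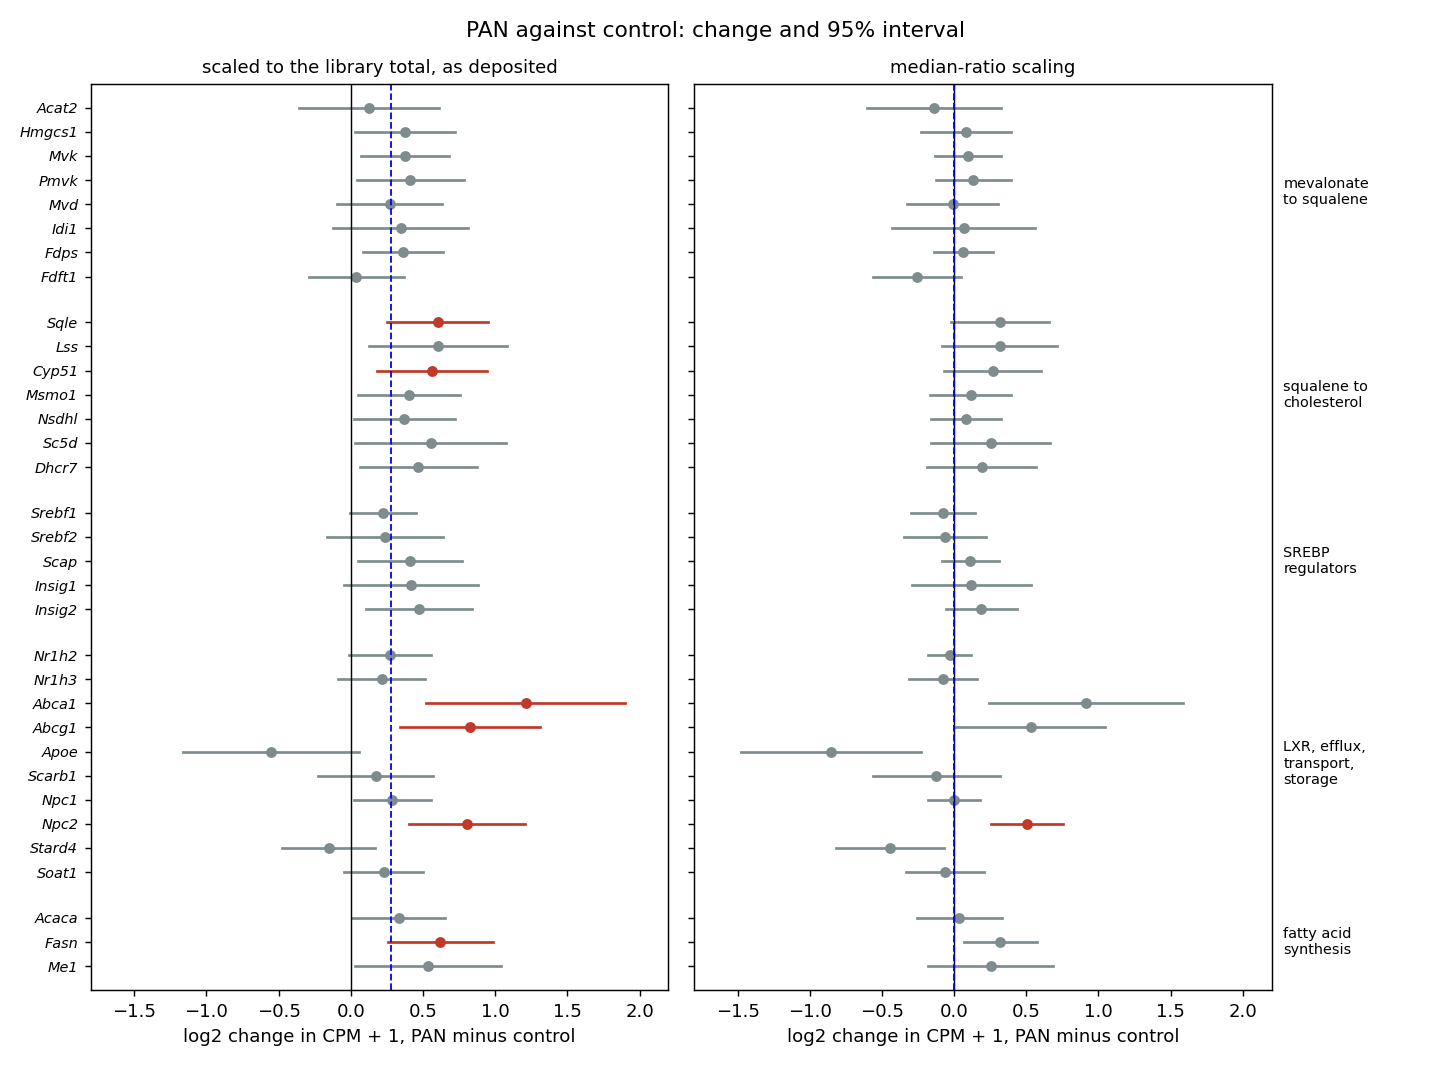
Log2 change from control to PAN of each of the 33 genes, ordered by role, with points for the estimates and bars for 95% intervals from the limma model over 16 libraries. The left panel is scaled as deposited and the right panel by median-ratio, and the dashed line is the median of all genes, 0.28 on the left and 0.00 on the right. Npc2 keeps its call in both panels, while Abca1 has the largest estimate, 1.21 and 0.92.

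None of the 8 enzymes that lead to squalene passed the test. Their median log2 change was 0.35 as deposited and 0.06 after median-ratio scaling, where 5 of 8 were positive. Hmgcs1, which condenses acetyl groups into HMG-CoA, was at 53.4, 34.1, 41.4 and 34.9 CPM in control rats 1 to 4 and at 46.7, 59.2, 55.0 and 50.2 CPM in PAN rats 1 to 4. Control rat 1 lay among the PAN rats, and the log2 change of 0.38 ± 0.16 (SE, n = 4 and 4) had an adjusted p of 0.0986 in limma. Idi1, which isomerises isopentenyl diphosphate, was at 15.1, 10.2, 11.1 and 11.0 CPM in control and at 9.45, 20.02, 17.3 and 15.99 CPM in PAN. PAN rat 1 had the lowest Idi1 level of the 8, and the log2 change of 0.34 ± 0.22 (SE) had an adjusted p of 0.237 in limma. Mvk, Pmvk, Fdps, Mvd, Acat2 and Fdft1 had log2 changes between 0.04 (Fdft1, the squalene synthase) and 0.41 (Pmvk, phosphomevalonate kinase) as deposited. Fdps, which makes farnesyl diphosphate, was at 40.1 to 57.9 CPM in control and 58.2 to 70.3 CPM in PAN, with an adjusted p of 0.0570 in limma. Those ranges did not overlap as deposited and did overlap after median-ratio scaling (54.0 to 66.1 and 55.2 to 64.9 CPM).

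Of the 7 enzymes from squalene to cholesterol, Sqle and Cyp51 rose, and the other 5 did not pass. Sqle encodes squalene epoxidase, which commits squalene to sterols. The control rats had 16.1, 11.1, 14.2 and 11.2 CPM and the PAN rats 17.9, 24.1, 19.5 and 19.9 CPM. Every PAN rat was above every control rat, and the log2 change was 0.60 ± 0.17 (SE, adjusted p 0.0219, limma). After median-ratio scaling the change was 0.32, with an adjusted p of 0.211 in limma, and the ranges of 11.3 to 17.4 and 15.5 to 22.3 CPM overlapped. Cyp51 encodes lanosterol 14-demethylase, the cytochrome P450 of this pathway. It was measured at 36.5, 24.3, 33.5 and 26.5 CPM in the control rats and at 37.9, 58.4, 45.4 and 38.9 CPM in the PAN rats, again without overlap, with a log2 change of 0.56 ± 0.18 (SE, adjusted p 0.0377, limma). After median-ratio scaling the Cyp51 change was 0.27, with an adjusted p of 0.278 in limma. The Cyp51 call was also lost in a fit to only the groups compared (adjusted p 0.0648) and without control rat 2, 3 or 4 or PAN rat 1, 2 or 3 (0.0567 to 0.137, limma). Lss, lanosterol synthase, had a log2 change of 0.60 that was as large as that of Sqle, but its control rat 1 (25.03 CPM) lay above PAN rats 1 and 4 (22.8 and 24.0 CPM), and its adjusted p was 0.0621 in limma. Msmo1, Nsdhl, Sc5d and Dhcr7, which act between lanosterol and cholesterol, had log2 changes of 0.41, 0.37, 0.55 and 0.47 with limma adjusted p-values of 0.0814 to 0.105. All 7 estimates were positive on both scales, with a median of 0.55 as deposited and 0.25 after median-ratio scaling. The median over all genes was 0.28 and 0.00 on those scales.

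Summed over the 15 sterol enzymes, the level averaged 368 ± 70.5 CPM in the control rats and 483 ± 57.4 CPM in the PAN rats (mean ± SD, n = 4 each), or 411 ± 46.7 and 443 ± 62.6 CPM after median-ratio scaling. On the latter scale PAN rat 2 was the highest of its group in 12 of the 15 enzymes, with a sum of 513 CPM, and PAN rat 1 was the lowest in 12 of 15, with a sum of 361 CPM. Control rat 4 was the lowest of its group in 10 of 15, with 357 CPM. The enzymes share library and depth within a rat, so these counts describe libraries and not independent measurements.

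The genes also differed in how far rats of one group lay apart. On the median-ratio log2(CPM + 1) scale the SD over the 4 PAN rats was largest for Abca1 (0.75), Apoe (0.58) and Idi1 (0.48), beside a median of 0.17 over all genes. Abca1 had an SD of 0.27 over the control rats, 0.10 with pioglitazone and 0.55 with GQ-16. In PAN the median SD was 0.28 for the genes of LXR, efflux, transport and storage and 0.16 for the SREBP regulators. These SDs are descriptions of 4 libraries each and were not compared by a test.

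**Figure D2:**
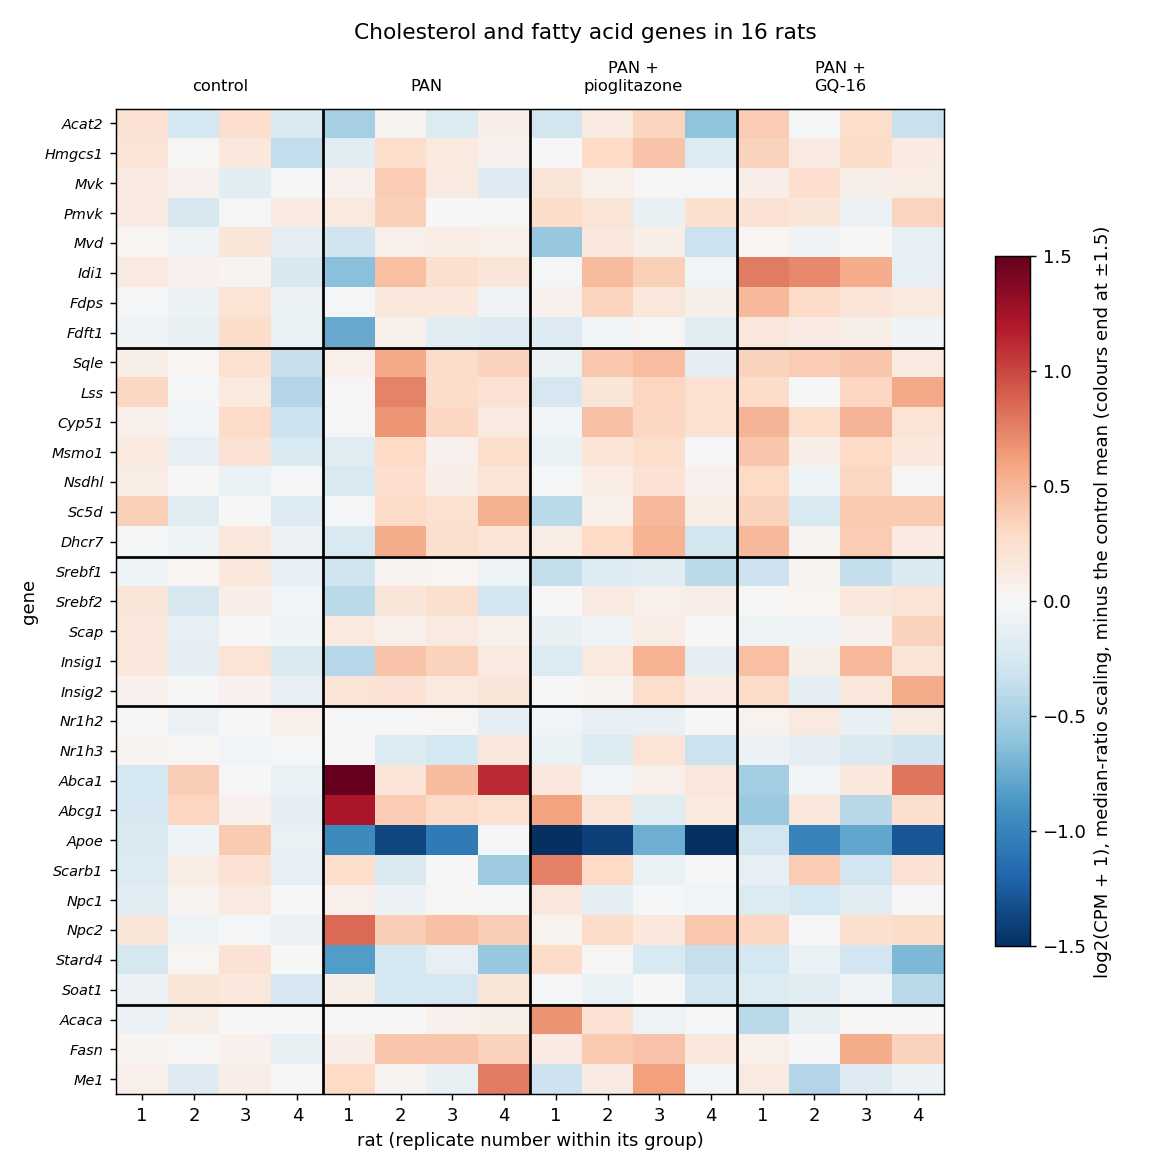
Log2(CPM + 1) of the 33 genes in each of the 16 rats after median-ratio scaling, minus the mean of the control rats, with colours that end at ±1.5. Columns are rats by group and rows are genes by role. PAN rat 1 has the highest Abca1 and Abcg1 of the 16 rats and is the lowest of its group in 12 of the 15 sterol enzymes, and Apoe is low in the 4 pioglitazone rats.

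None of the 5 SREBP regulators passed the test. Srebf1, the gene of the SREBP isoforms that favour fatty acid synthesis, was at 51.2, 39.7, 47.5 and 47.6 CPM in control and at 49.0, 58.4, 57.9 and 52.0 CPM in PAN. Its ranges overlapped, and the log2 change of 0.22 ± 0.11 (SE, adjusted p 0.132, limma) became -0.08 after median-ratio scaling. Srebf2, the gene of the SREBP isoform that favours sterol synthesis, was at 143, 76.5, 106 and 118 CPM in control and at 107, 150, 157 and 106 CPM in PAN, with a log2 change of 0.24 ± 0.19 (SE, adjusted p 0.335, limma) that became -0.06. Insig1, itself a target of the SREBPs, was at 51.2, 29.6, 41.7 and 37.7 CPM in control and at 37.6, 65.2, 61.4 and 51.2 CPM in PAN. PAN rat 1 was again the lowest of its group, and the log2 change of 0.41 ± 0.22 (SE) had an adjusted p of 0.158 in limma and was 0.12 after median-ratio scaling. Insig2, the second INSIG protein, was at 11.1 to 16.2 CPM in control and 18.1 to 20.2 CPM in PAN, without overlap on either scale, and its adjusted p was 0.0599 as deposited and 0.296 after median-ratio scaling in limma. Scap had a log2 change of 0.41 (adjusted p 0.0838, limma).

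Among the 10 genes of LXR, efflux, transport and storage, the pumps Abca1 and Abcg1 and the lysosomal carrier Npc2 rose, and none fell. Npc2 hands cholesterol to the lysosomal membrane protein NPC1. Npc2 stood at 103, 61.8, 71.3 and 82.7 CPM in the control rats and at 184, 123, 131 and 121 CPM in the PAN rats. Every PAN rat was above every control rat, and the log2 change was 0.81 ± 0.19 (SE, adjusted p 0.0108, limma). After median-ratio scaling the ranges of 83.2 to 100 and 114 to 160 CPM still did not overlap, and the change of 0.51 had an adjusted p of 0.0150 in limma. The Npc2 call was lost with the library number as a covariate (0.58, adjusted p 0.195), without the 3 libraries over 30% mitochondrial reads (0.57, adjusted p 0.191) and with libraries numbered 15 or lower (0.62, adjusted p 0.536, limma). Npc1 itself had a log2 change of 0.29 (adjusted p 0.0975, limma) as deposited and of 0.00 after median-ratio scaling.

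Abca1 was at 25.7, 29.1, 24.6 and 28.0 CPM in control and at 131, 37.6, 45.9 and 70.6 CPM in PAN. The control rats lay close together, and the PAN rats spread from just above them to the highest level of all 16 rats in PAN rat 1. The log2 change was 1.21 ± 0.32 (SE, 95% interval 0.52 to 1.90, adjusted p 0.0194, limma), and after median-ratio scaling it was 0.92 with an adjusted p of 0.0856 in limma. Abcg1, which passes cholesterol to mature lipoprotein particles, was at 32.03, 34.6, 31.8 and 33.5 CPM in control and at 102, 52.9, 49.4 and 46.2 CPM in PAN. This gave a log2 change of 0.83 ± 0.23 (SE, adjusted p 0.0225, limma), or 0.53 after median-ratio scaling with an adjusted p of 0.179 in limma. On that scale the Abcg1 ranges of 31.1 to 46.8 CPM in control and 43.9 to 88.1 CPM in PAN overlapped. These calls leaned on single libraries. Without PAN rat 1 the log2 change as deposited was 0.86 for Abca1 and 0.57 for Abcg1, and neither passed (adjusted p 0.0626 and 0.0708, limma), whereas Npc2, Sqle and Fasn still passed. Sqle and Fasn in turn lost their calls without control rat 2, control rat 3 or PAN rat 2. Abca1 and Abcg1 also lost theirs without control rat 2 or control rat 3.

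Marker levels of other cells also differed between control and PAN. Summed over 9 macrophage and leukocyte markers, control rats ranged from 482 to 842 CPM and PAN rats from 798 to 1858 CPM. The level of 1858 CPM belonged to PAN rat 1, the rat with the highest Abca1, Abcg1 and Npc2. The same rat had the highest sums of the 3 listed fibroblast markers (2556 CPM, against 107 to 290 CPM in the other PAN rats) and of the 7 mesangial and smooth muscle markers (2695 CPM, against 1588 to 2200 CPM). From control to PAN, 7 of 9 macrophage markers rose as deposited and 1 of 9 after median-ratio scaling. Of the mesangial and smooth muscle markers 7 of 7 and 6 of 7 rose. Of 10 podocyte markers 2 and 1 rose, beside 2874 and 942 of all genes. Of 8 distal tubule and collecting duct markers 3 and 2 fell, beside 69 and 199 of all genes. PAN rat 1 also had the highest podocyte sum of its group, 10320 CPM. In PAN rats 2 to 4 the macrophage sums of 1101, 840 and 798 CPM ran in the opposite order to Abca1. The mesangial and smooth muscle list holds Des, Acta2 and Tagln, and which cells expressed its markers was not tested. The part of macrophages, fibroblasts and mesangial or smooth muscle cells in the levels of Abca1, Abcg1 and Npc2 was not tested either.

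Apoe, the lipid carrier secreted by macrophages and other cells, had the lowest estimate of the 33 genes, and it did not pass. The control rats had 644, 519, 780 and 676 CPM of Apoe and the PAN rats 435, 307, 379 and 754 CPM. PAN rat 4 lay within the control range and the other PAN rats lay below it, with a log2 change of -0.55 ± 0.29 (SE, adjusted p 0.153, limma) as deposited and -0.85 (adjusted p 0.0839) after median-ratio scaling. PAN rat 4 also had the highest sum of proximal tubule markers of its group, 12008 CPM against 3011 to 6290 CPM in the other 3 rats, and the part of tubule RNA in its Apoe level was not tested. Without PAN rat 4 the Apoe change was -0.81 and passed (adjusted p 0.0415, limma). Stard4, a cytosolic sterol carrier, had a log2 change of -0.15 as deposited and -0.45 after median-ratio scaling (adjusted p 0.441 and 0.126, limma). The receptors Nr1h2 and Nr1h3, which are the LXRs, the lipoprotein receptor Scarb1 and the esterifying enzyme Soat1 had log2 changes of 0.17 to 0.27 as deposited and of -0.12 to -0.03 after median-ratio scaling, and none passed.

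Of the 3 genes of fatty acid synthesis, Fasn rose. Fasn encodes fatty acid synthase, measured at 80.0, 56.8, 64.4 and 69.6 CPM in the control rats and at 93.8, 110, 110 and 102 CPM in the PAN rats. The ranges did not overlap on either scale, and the log2 change was 0.62 ± 0.17 (SE, adjusted p 0.0226, limma), or 0.32 with an adjusted p of 0.108 in limma after median-ratio scaling. The Fasn call was lost without control rat 2 or 3 or PAN rat 2 or 3 (adjusted p 0.0505 to 0.0862, limma). Acaca, which makes malonyl-CoA for it, and Me1, which supplies NADPH, had log2 changes of 0.33 and 0.53 with limma adjusted p-values of 0.110 and 0.103.

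**Figure D3:**
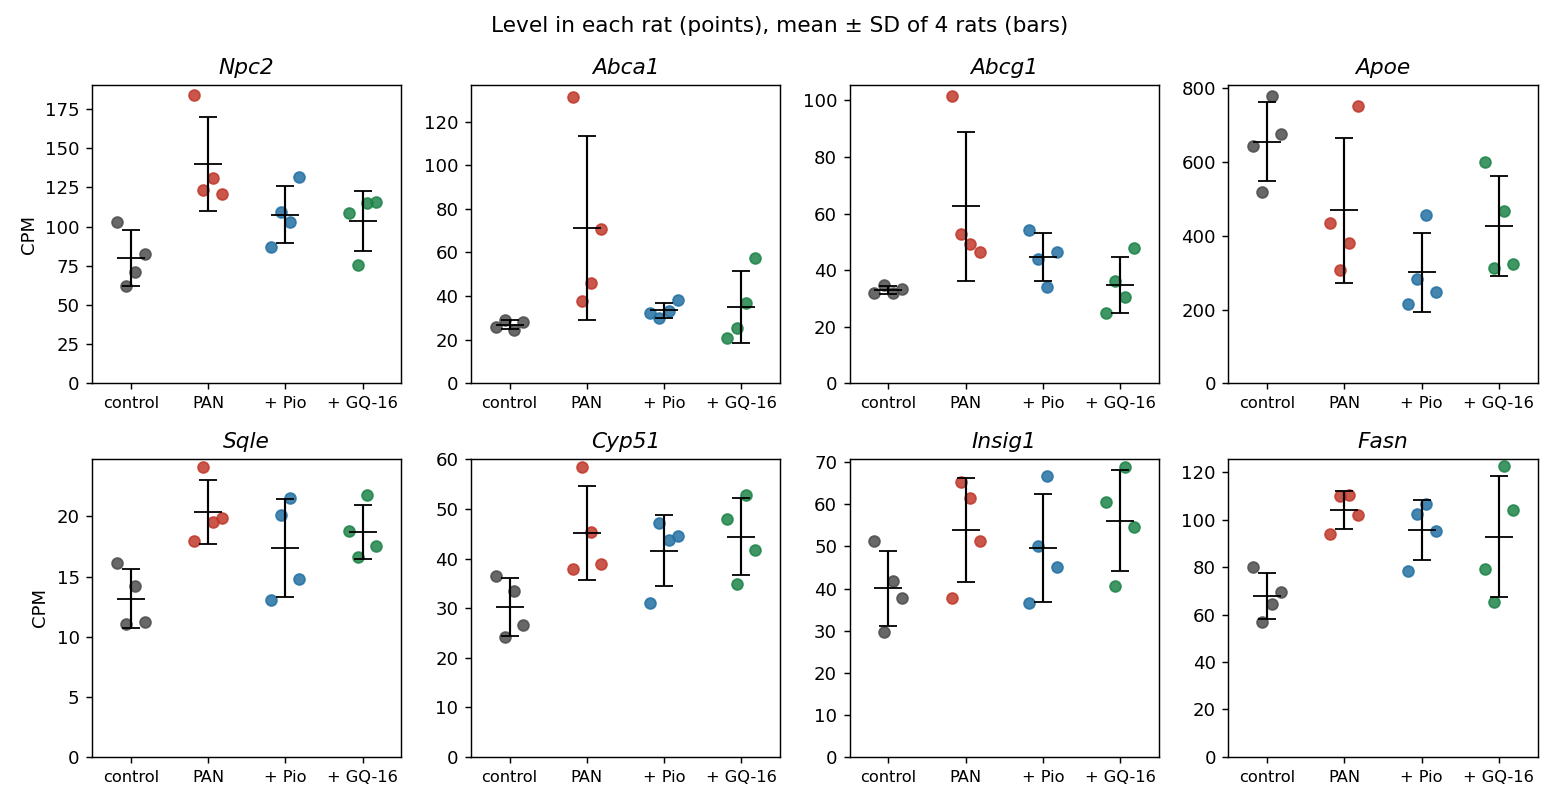
Level in CPM, scaled as deposited, of 8 genes in each rat (points), with the mean and SD of the 4 rats of each group (bars), on axes that start at 0. Abca1 is at 24.6 to 29.1 CPM in control, 37.6 to 131 in PAN, 30.01 to 38.2 with pioglitazone and 20.5 to 57.5 with GQ-16, and Apoe is lowest with pioglitazone at 214 to 457 CPM.

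Other genes of these pathways were counted from lists of their own. None of the 10 listed further genes of sterol synthesis passed, and of 15 genes that process or degrade SREBPs and their partners Ufd1 rose (log2 change 0.48, adjusted p 0.0373, limma). Of 22 further genes of fatty acid and triglyceride synthesis 4 rose and none fell. Among these 4 the largest changes were those of Scd2, a fatty acid desaturase (238 ± 113 CPM in control and 419 ± 40.3 CPM in PAN, mean ± SD, log2 change 0.91, adjusted p 0.0492, limma), and Elovl1, a fatty acid elongase (122 ± 32.4 and 222 ± 29.8 CPM, log2 change 0.88, adjusted p 0.0115). Of 24 genes of sterol transport, uptake and LXR response 5 rose and none fell. The counts of both lists lay near the 21.7% of all genes that rose. Among the 5 genes the largest changes were those of Lrp1, a receptor that takes up apolipoprotein E particles (161 ± 45.7 CPM in control and 394 ± 105 CPM in PAN, log2 change 1.29, adjusted p 0.00326, limma), and Ch25h, which makes the LXR ligand 25-hydroxycholesterol (3.73 ± 0.644 and 7.74 ± 1.49 CPM, log2 change 0.88, adjusted p 0.0150). After median-ratio scaling Elovl1 and Lrp1 alone of these kept their calls, with changes of 0.58 and 0.99.

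Each drug group was compared with PAN to ask what treatment added to injury, and both comparisons share the same 4 PAN rats. With pioglitazone none of the 33 genes passed in limma on either scale, and 0% of all genes passed on each. At an unadjusted p under 0.05, 3 of the 33 genes were lower (Abca1, Srebf1 and Apoe) and none higher, against 3.21% of all genes lower and 0.529% higher. After median-ratio scaling 2 were lower, Abca1 and Npc2, against 3.36% of all genes, and Stard4 was higher, against 2.19%. With GQ-16 none of the 33 genes passed in limma, against 0.0151% of all genes as deposited and 0% after median-ratio scaling. At an unadjusted p under 0.05, 6 of the 33 were lower (Abcg1, Abca1, Srebf1, Npc2, Npc1 and Me1) and none higher, against 7.93% of all genes lower and 0.34% higher. After median-ratio scaling 3 were lower, Abca1, Abcg1 and Npc2, against 4.53% of all genes, and Fdps and Fdft1 were higher, against 2.37%. A voom fit to the recovered reads also passed none of the 33 genes for either drug.

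Abca1 was at 32.2, 30.01, 33.1 and 38.2 CPM with pioglitazone and at 20.5, 25.2, 37.0 and 57.5 CPM with GQ-16, against 131, 37.6, 45.9 and 70.6 CPM in PAN. The pioglitazone rats lay close together, with their highest just above the lowest PAN rat, and the GQ-16 rats spread across the control and PAN ranges. The log2 change from PAN was -0.91 with pioglitazone (95% interval -1.59 to -0.22, adjusted p 0.916, limma) and -0.94 with GQ-16 (-1.63 to -0.26, adjusted p 0.447). Without PAN rat 1 these values were -0.56 and -0.60. Abcg1 was at 54.3, 43.9, 34.0 and 46.4 CPM with pioglitazone and at 24.9, 36.0, 30.4 and 47.7 CPM with GQ-16, with log2 changes from PAN of -0.42 (adjusted p 0.916, limma) and -0.79 (adjusted p 0.411). The macrophage marker sum ranged over 774 to 1063 CPM in the pioglitazone rats and 589 to 872 CPM in the GQ-16 rats, against 1858 CPM in PAN rat 1 and 798 to 1101 CPM in the other PAN rats. In the GQ-16 group the rat with the highest Abca1 and Abcg1, rat 4, had the lowest macrophage marker sum, 589 CPM, and the highest mesangial and smooth muscle marker sum. That mesangial sum was 702, 747, 1189 and 1288 CPM in GQ-16 rats 1 to 4, an order that Abca1 shared, and ranged over 1127 to 1588 CPM in the pioglitazone rats and 1588 to 2695 CPM in PAN. None of the 7 mesangial markers passed against PAN with either drug, and their median log2 change was -0.73 with pioglitazone and -1.08 with GQ-16. The part of macrophage or mesangial RNA in these estimates was not tested.

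Srebf1 was at 38.6, 46.3, 48.6 and 43.9 CPM with pioglitazone and at 41.6, 46.2, 44.4 and 48.1 CPM with GQ-16. All 8 treated rats lay below the 4 PAN rats, whose lowest level was 49.0 CPM, as deposited. Of all 13222 genes, 312 were lower than PAN without overlap with pioglitazone and 459 with GQ-16. The log2 change from PAN was -0.29 ± 0.11 (SE, adjusted p 0.916, limma) with pioglitazone and -0.26 ± 0.11 (SE, adjusted p 0.539) with GQ-16. After median-ratio scaling the ranges overlapped, and the changes were -0.21 and -0.14. Npc2 with GQ-16 was lower than PAN without overlap as deposited (75.3 to 115 against 121 to 184 CPM). It stayed so after median-ratio scaling (87.9 to 110 against 114 to 160 CPM), beside 244 of all genes. Srebf2 had log2 changes from PAN of 0.06 and 0.03 with pioglitazone and GQ-16, at levels of 116, 138, 134 and 147 CPM and of 121, 107, 149 and 151 CPM. Insig1 was at 36.5, 50.2, 66.8 and 45.1 CPM with pioglitazone and at 60.5, 40.5, 68.9 and 54.6 CPM with GQ-16. Its log2 changes from PAN were -0.12 and 0.06, with limma adjusted p-values of 0.931 and 0.964.

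The sterol enzymes showed small estimates with both drugs. Summed, they averaged 455 ± 66.7 CPM under pioglitazone, 486 ± 71.2 CPM under GQ-16 and 483 ± 57.4 CPM in PAN alone (mean ± SD, n = 4 each). After median-ratio scaling the sums were 439 ± 54.6, 482 ± 37.1 and 443 ± 62.6 CPM. The median log2 change of the 15 enzymes from PAN was -0.10 with pioglitazone and -0.05 with GQ-16, near the medians of all genes of -0.09 and -0.11. After median-ratio scaling these were -0.03 and 0.06, beside -0.01 and 0.01 over all genes. The sign for GQ-16 turned with the scaling, and 6 of the 15 enzymes had a positive estimate as deposited and 12 after median-ratio scaling. Hmgcs1 was at 43.4, 57.4, 63.8 and 44.3 CPM with pioglitazone and at 57.5, 42.4, 60.7 and 53.2 CPM with GQ-16, with log2 changes of -0.03 (95% interval -0.38 to 0.32) and 0.01 (-0.34 to 0.36). Sqle was at 13.04, 20.1, 21.5 and 14.8 CPM with pioglitazone and at 18.8, 16.7, 21.8 and 17.5 CPM with GQ-16, with log2 changes of -0.24 (-0.59 to 0.11) and -0.12 (-0.47 to 0.23). Idi1 was at 12.3, 19.3, 17.95 and 14.5 CPM with pioglitazone and at 23.2, 19.3, 21.9 and 12.99 CPM with GQ-16. Its log2 changes were 0.05 (-0.42 to 0.52) and 0.30 (-0.17 to 0.77). These intervals include 0 and leave room for changes of some size in either direction.

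**Figure D4:**
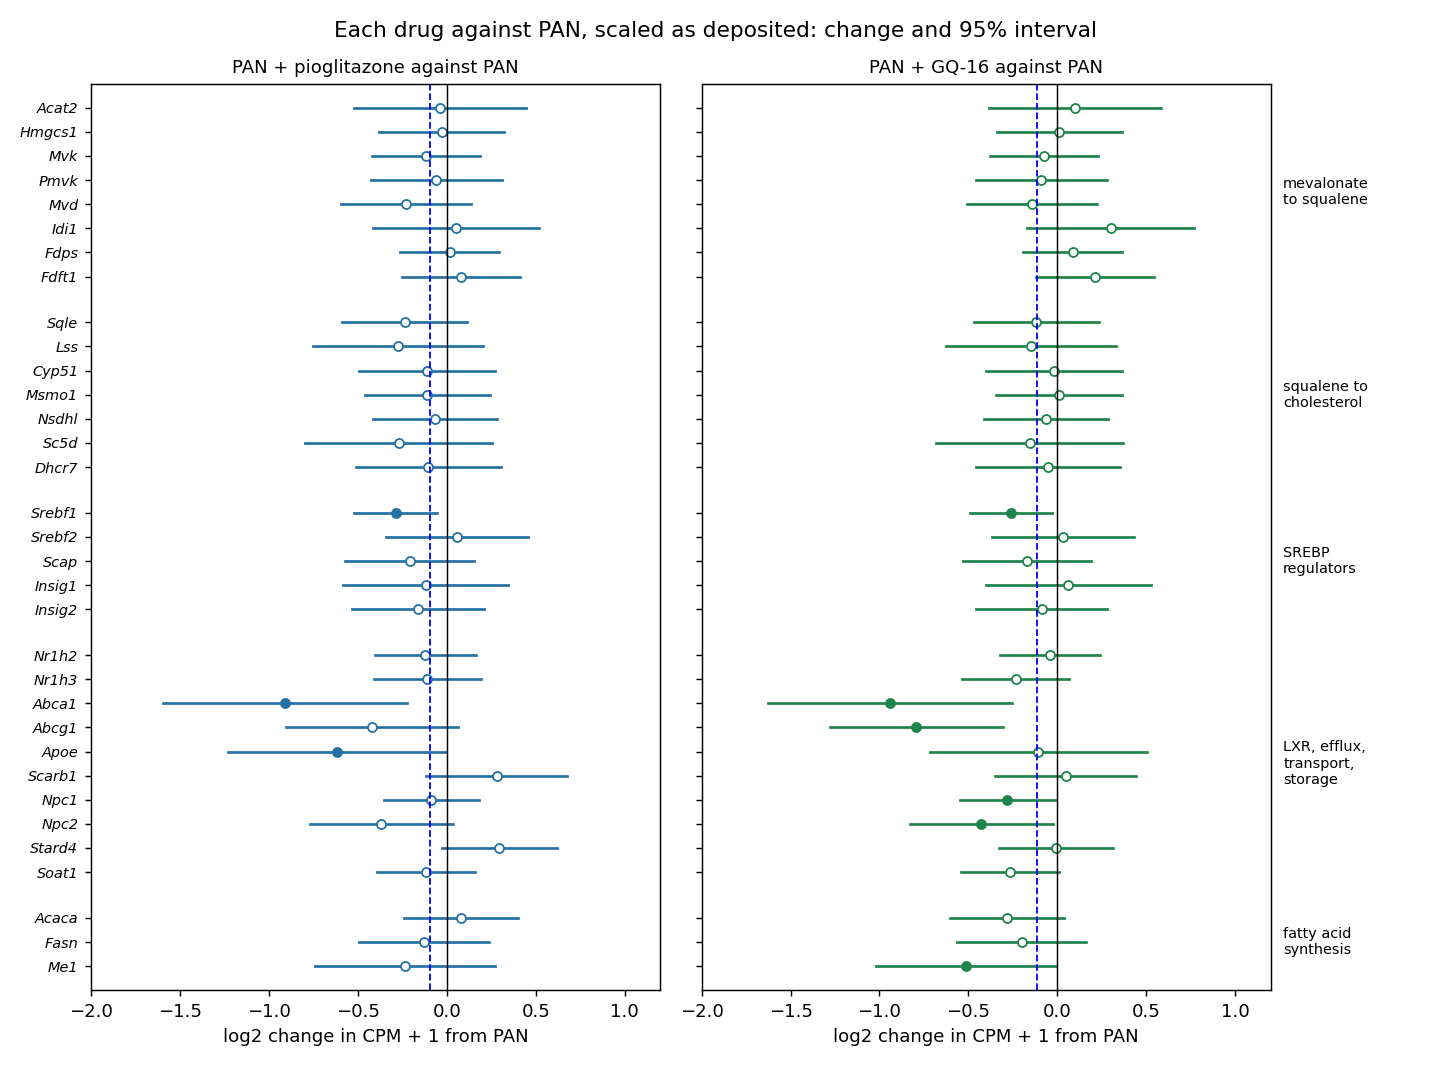
Log2 change from PAN of each of the 33 genes with pioglitazone (left) and GQ-16 (right), scaled as deposited, with points for the estimates and bars for 95% intervals from the limma model. The dashed lines are the medians of all genes, -0.09 and -0.11. Abca1 has the lowest estimate in both panels, -0.91 and -0.94, and no gene passes the adjusted test.

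Apoe was at 214, 284, 457 and 248 CPM with pioglitazone, so that 3 of the 4 rats lay below every PAN rat, and at 601, 312, 467 and 323 CPM with GQ-16. The log2 change from PAN was -0.62 ± 0.29 (SE, adjusted p 0.916, limma) with pioglitazone and -0.11 ± 0.29 (SE, adjusted p 0.953) with GQ-16. The pioglitazone value ranged from -0.84 to -0.36 with 1 rat left out and from -1.31 to -0.53 under the other alternatives. The pioglitazone rat with the highest Apoe, rat 3, also had the highest proximal tubule marker sum of its group, 10150 CPM against 3169 to 5445 CPM. In the GQ-16 group the rats with the highest Apoe, 1 and 3, had the highest such sums, 8214 and 7963 CPM. In control the highest sum, 10738 CPM, was in rat 1 and the highest Apoe, 780 CPM, in rat 3. In PAN the lowest sum, 3011 CPM, was in rat 1 and the lowest Apoe, 307 CPM, in rat 2. The part of tubule RNA in these Apoe levels was not tested. Fasn was at 78.3, 102, 107 and 94.98 CPM with pioglitazone and at 79.2, 65.2, 122 and 104 CPM with GQ-16, with log2 changes from PAN of -0.13 and -0.20 (adjusted p 0.917 and 0.809, limma). With 1 rat left out these Fasn changes ranged from -0.18 to -0.03 and from -0.35 to -0.05.

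GQ-16 was compared with pioglitazone to ask whether a partial and a full agonist differed in these genes, 1 pair of compounds at doses that the labels do not give. None of the 33 genes passed in limma, on either scale, against 0% of all genes on each. At an unadjusted p under 0.05 Acaca alone was called among the 33, against 5.94% of all genes, and the voom fit passed none. Acaca was at 53.7, 42.0, 34.6 and 38.7 CPM with pioglitazone and at 26.2, 27.8, 38.9 and 38.0 CPM with GQ-16, with overlapping ranges and a log2 difference, GQ-16 minus pioglitazone, of -0.36 (95% interval -0.68 to -0.04, adjusted p 0.772, limma). Stard4 was at 36.7, 33.2, 28.2 and 27.9 CPM with pioglitazone and at 26.2, 25.4, 28.6 and 21.1 CPM with GQ-16, a log2 difference of -0.30 (-0.62 to 0.02, adjusted p 0.870). For Apoe the log2 difference was 0.51 (-0.10 to 1.12, adjusted p 0.964, limma). For Abca1 it was -0.03, with an interval of -0.72 to 0.65 that does not show equal levels. The estimate was positive for 14 of the 15 sterol enzymes as deposited and for 15 after median-ratio scaling, with medians of 0.09 and 0.14 beside -0.02 and 0.02 over all genes. Over all 13222 genes it was positive for 5921 and 7237, and over the 10 further genes of sterol synthesis for 6 and 7. The enzymes share library and depth within a rat, so these counts do not describe independent measurements.

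Each drug group was also compared with control, and these comparisons share their control rats with that of PAN. With pioglitazone Apoe fell and none of the other 32 genes passed, against 4.98% of all genes as deposited and 2.84% after median-ratio scaling. All 4 pioglitazone rats, at 214 to 457 CPM, lay below all 4 control rats, at 519 to 780 CPM. The log2 change was -1.17 ± 0.29 (SE, 95% interval -1.78 to -0.56, adjusted p 0.0323, limma) as deposited and -1.39 (adjusted p 0.0263) after median-ratio scaling. The summed distal tubule and collecting duct markers did not overlap either, at 941 to 1623 CPM in control and 578 to 686 CPM with pioglitazone as deposited, and 3 of these 8 markers fell on both scales. None of the 8 proximal tubule markers passed, and their median log2 change was -0.71 as deposited and -0.93 after median-ratio scaling. The part of tubule RNA in the Apoe change was not tested. The call was lost without control rat 2, control rat 3 or pioglitazone rat 1, 2 or 4, with log2 changes of -1.27 to -1.02 and limma adjusted p-values of 0.0708 to 0.123. It was also lost without the 3 libraries over 30% mitochondrial reads (-1.19, adjusted p 0.413, limma). With libraries numbered 15 or lower it was lost too, at a log2 change of -1.10. Fdps and Fasn came next, with log2 changes of 0.38 and 0.49 and limma adjusted p-values of 0.0943 and 0.0954. Fdps was at 57.0, 74.4, 67.4 and 68.5 CPM with pioglitazone against 57.9, 40.1, 53.9 and 53.7 CPM in control. Of the further pathway genes Elovl5, Ch25h and Lrp1 rose with pioglitazone, by log2 changes of 0.59, 0.96 and 1.01 (adjusted p 0.0477, 0.0252 and 0.0318, limma), and Elovl5 alone kept its call after median-ratio scaling.

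With GQ-16 none of the 33 genes differed from control at an adjusted p under 0.05 in limma or in the voom fit, against 0.151% of all genes as deposited and 0.741% after median-ratio scaling. At an unadjusted p under 0.05, 10 of the 33 were higher, against 21.9% of all genes, and Apoe was lower, against 2.03%. After median-ratio scaling 2 of the 33, Fdps and Cyp51, were higher by that measure, against 14.7% of all genes, and Apoe alone was lower, against 9.26%. The smallest p-values were those of Fdps, at 80.6, 60.2, 71.8 and 68.4 CPM (log2 change 0.45 ± 0.13, SE, adjusted p 0.103, limma), Cyp51, at 48.0, 34.9, 52.8 and 41.8 CPM (0.54 ± 0.18, adjusted p 0.120), and Sqle, at 18.8, 16.7, 21.8 and 17.5 CPM (0.48 ± 0.17, adjusted p 0.124). Every GQ-16 rat was above every control rat in Fdps and in Sqle, whereas 3 of 4 were above the highest control rat, control rat 1, in Cyp51, all as deposited. Of all genes 4.92% were higher without overlap in the same way. After median-ratio scaling the ranges of Fdps and Sqle overlapped with control, and none of the 33 was higher without overlap, against 6.26% of all genes. Apoe and Nr1h3 were lower without overlap on that scale, against 5.49% of all genes. Without control rat 1, 6 genes passed, namely Cyp51, Fdps, Hmgcs1, Idi1, Msmo1 and Sqle, beside 1572 of all genes against 20 with every library. Apoe, at 601, 312, 467 and 323 CPM, had a log2 change from control of -0.66 (adjusted p 0.185, limma).

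The sample titles carry numbers whose meaning the labels do not give. Of the 4 PAN rats 3 have the numbers 25, 31 and 32, while no control rat has a number over 10. With the number as a covariate none of the 33 genes passed in PAN against control, beside 393 of all genes, at log2 changes of 0.93 for Abca1, 0.68 for Sqle, 0.58 for Npc2, 0.54 for Fasn, 0.52 for Abcg1 and 0.48 for Cyp51. With libraries numbered 15 or lower PAN rat 4 is alone in its group and is assumed to vary like the rats of the other groups, so that fit says nothing of the spread among PAN rats. Abca1 alone of the 33 passed there, beside 79 of all genes. What the number marks and injury cannot be told apart in these libraries.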

How the data were processed

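Stranded poly(A) RNA libraries of sieved glomeruli were made and sequenced as read pairs, per the labels' protocols. The deposited table holds log2 CPM values, which the authors made from reads counted per gene, and the submitters' processing notes name HISAT2, featureCounts, Subread, limma and the rat build Rnor_6.0. The deposited values follow the form used by voom, with an offset of 0.5 on the reads and of 1 on the total, and undoing it gave whole reads, to within 0.05 of a read, for 99.99% of values. Each listed gene reached at least 2.04 CPM in 8 or more libraries, so low genes had been left out of the table. Libraries held 13351137 to 21977663 reads, and read counts without molecular identifiers give counting error only.

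CPM was recovered from the deposited log2 values and tested as log2(CPM + 1), with a pseudocount of 1 CPM, in limma 3.58.1 (R 4.3.3). A single model with 4 group means and a variance trend was fitted to 16 libraries and 13222 genes, with 12 residual degrees of freedom before limma's moderation, two-sided tests and Benjamini-Hochberg adjustment over all genes at 0.05 for each of 6 comparisons. The plan had named a count model first in case of raw counts, and because the table holds log2 values its limma branch was used. Log2(CPM + 1) understates changes of low genes. Median-ratio scaling divided the recovered reads by size factors taken as medians of ratios to the gene-wise geometric mean. The script was tested on simulated data. Promoter windows came from RefSeq (GRCr8), which differs from the build of the counts, and are used for sequence only.

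The genes, lists, markers and tests were chosen with earlier results of these data known. Genes given in full are Hmgcs1, Sqle, Idi1, Insig1, Srebf1, Srebf2, Abca1, Apoe and Fasn in the comparisons of PAN with control and of each drug with PAN, every member passing the test in a comparison, and the 3 of smallest p where fewer than 3 passed. Of further pathway genes the 2 largest rises per list are named, and Ufd1 and Elovl5 as the single genes behind a count. Values of other members were picked for the text after they were seen. The alternatives tried were median-ratio scaling, quantile normalization, a pseudocount of 0.1 CPM, a mean of at least 10 CPM, a fit to only the groups compared, the library number as a covariate, voom on the recovered reads, and leaving out each rat. Chosen after seeing the data were totals without mitochondrial genes, leaving out the 3 libraries over 30% mitochondrial reads, and libraries numbered 15 or lower.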

Additional observations from a re-analysis of the deposited data

Results flagged for a closer look

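In each group of 4 rats the highest and lowest level of each of the 33 genes was set against the gap to its nearest neighbour, and 3 of 132 groups held a rat that stood apart by Dixon's criterion for 4 samples, where chance alone would give about 6.6. Abcg1 was at 102 CPM in PAN rat 1 and at 46.2 to 52.9 CPM in the other PAN rats, the library that also had the highest macrophage marker sum, 1858 CPM. Npc2 was at 75.3 CPM in GQ-16 rat 2 and at 109 to 115 CPM in the other GQ-16 rats, and that library had 31.4% mitochondrial reads. After median-ratio scaling its Npc2 level was 87.9 CPM against 105 to 110 CPM, and it no longer stood apart by that criterion (a gap of 0.795 of the group's log2 range, against 0.865 as deposited). Nr1h3, the gene of LXR alpha, was at 32.2 CPM in pioglitazone rat 3 and at 23.7 to 24.0 CPM in the other 3, and that library had the highest proximal tubule marker sum of its group, 10150 CPM. After median-ratio scaling Nr1h3 was at 30.99 CPM against 21.3 to 25.1 CPM and that rat no longer stood apart (0.571 of the range, against 0.966). Abcg1 in PAN rat 1 stood apart on both scales (0.848 after median-ratio scaling, 0.831 as deposited).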

How the results depend on the processing

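No paired analysis was possible because the labels give no replicate numbers that groups share. The 6 genes that rose from control to PAN became 1 (Npc2) under median-ratio scaling, quantile normalization, voom on recovered reads and totals without mitochondrial genes, 1 (Abca1) with library numbers of 15 or lower, where the lone PAN rat is assumed to vary like the other groups, and 0 with the library number as a covariate or without the 3 libraries over 30% mitochondrial reads. Leaving out 1 rat at a time gave 1 to 16, 0 to 1 for pioglitazone against control and 0 to 6 for GQ-16 against control. Over all genes, PAN against control gave 2943 calls, 1141 under median-ratio scaling, 1138 under quantile normalization, 1047 under voom, 1086 with totals without mitochondrial genes, 393 with the covariate, 79 with library numbers of 15 or lower, 56 without the 3 libraries and 838 to 4964 with 1 rat left out. GQ-16 against control gave 20, and 1572 without control rat 1. The single call of pioglitazone against control, Apoe, went to 0 without the 3 libraries and with library numbers of 15 or lower, beside 0 and 285 of all genes against 659. The other comparisons stayed at 0 under each alternative run. The causes of these moves were not tested, except that the last 2 settings fit fewer samples.

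Of 400 values of the 40 named changes under 10 alternatives, 333 kept direction and side of the threshold, 40 lost the call and 27 changed sign, and none of the 27 belonged to a called change. From control to PAN, Idi1 was -0.00059 under quantile normalization. Srebf1 was -0.075 under median-ratio scaling and voom, -0.079 under quantile normalization and -0.087 with mitochondrial genes left out of the totals. Srebf2 was -0.063 under median-ratio scaling and voom, -0.064 under quantile normalization, -0.075 with mitochondrial genes left out, -0.023 without the 3 libraries and -0.036 with library numbers of 15 or lower, where Apoe was 0.22. From PAN to pioglitazone, Hmgcs1 was 0.053 under median-ratio scaling, voom and totals without mitochondrial genes, 0.065 under quantile normalization and 0.11 with library numbers of 15 or lower. Idi1 was -0.10 with the library number as a covariate. From PAN to GQ-16, Hmgcs1 was -0.020 with that covariate. Sqle was 0.0030 under median-ratio scaling, 0.017 under quantile normalization, 0.0035 under voom and 0.0049 with mitochondrial genes left out, and Apoe was 0.020, 0.055 and 0.022 under median-ratio scaling, quantile normalization and totals without mitochondrial genes and 0.024 without the 3 libraries.

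With 1 rat left out, 589 of 640 values kept direction and side of the threshold, 24 lost the call, all among the 112 values of called changes, 5 gained one and 22, none of a called change, changed sign. From PAN to pioglitazone the ranges were -0.13 to 0.052 for Hmgcs1, -0.16 to 0.18 for Idi1, -0.28 to 0.015 for Insig1 and -0.032 to 0.16 for Srebf2. From PAN to GQ-16 they were -0.052 to 0.12 for Hmgcs1, -0.096 to 0.21 for Insig1, -0.058 to 0.13 for Srebf2 and -0.29 to 0.15 for Apoe. The levels of these genes lay far above 3 reads.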
